A study of Mus musculus with 11 samples.

Results

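Pdgfb and 9 marker genes of mural cells were followed through 11 libraries of RNA bound to endothelial ribosomes from mouse brain and glioma. Pdgfb encodes PDGF-B, a growth factor that endothelial cells secrete. The markers were Pdgfrb, the receptor for PDGF-B, 5 genes used to recognise pericytes (Rgs5, Kcnj8, Abcc9, Cspg4 and Anpep) and 3 used to recognise vascular smooth muscle (Acta2, Tagln and Myh11). The 10 genes were chosen by symbol from the 45886 genes in each library. Of these 10, 9 reached 1 FPKM in 2 or more libraries and were tested among 15607 genes, while Myh11 did not reach it in any. FPKM counts fragments scaled by transcript length and by the fragments mapped in the library.

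Pericytes and vascular smooth muscle cells wrap the endothelial tube and are together called mural cells. Endothelial PDGF-B is kept close to the vessel by heparan sulphate, binds PDGFRB on pericytes and draws them along growing vessels, and mice that lack the growth factor or its receptor have capillaries short of pericytes. In the brain, pericytes are needed for a tight blood-brain barrier, and vessels of gliomas often carry a loose or irregular pericyte coat.

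The study compared adult C57BL/6 mice that were wild type or Eltd1-/-. Eltd1, now named Adgrl4, belongs to the adhesion family of G protein-coupled receptors and is made by endothelium. The groups were brain of healthy wild type mice (n = 3), brain of healthy Eltd1-/- mice (n = 3), GL261 tumour of wild type mice (n = 3) and GL261 tumour of Eltd1-/- mice (n = 2, where the protocol speaks of 3). GL261 is a mouse glioma cell line, and it was injected into the brain. Mice of every group, controls included, carried the ribosomal protein L10a fused to eGFP under the VE-cadherin promoter, which is active in endothelium. Tagged ribosomes were captured with antibody against GFP, and the RNA on them was sequenced (translating ribosome affinity purification, TRAP). Mural cells are not meant to carry the tag, so the markers were read in RNA that should be endothelial. In such bulk RNA, fewer cells of a type and less RNA per cell cannot be told apart. The libraries are listed as separate samples and were treated as independent. Every p-value rests on the spread between these few samples.

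Some libraries stood apart before any comparison. Adgrl4 was lower in every Eltd1-/- library than in every wild type library of the same tissue: 5.82 and 11.5 FPKM against 27.4, 44.99 and 192 in tumour, and 21.6, 22.2 and 23.6 against 82.7, 153 and 166 in brain. An FPKM of exactly 0 can be a failed estimate, because mRNAs of the mitochondrial genome, which every cell uses, were listed at 0 in each library (4 to 13 of 13). Among 10904 genes with a mean of at least 5 FPKM, wild type tumour replicate 2 listed 25.4% at 0, wild type brain replicate 1 listed 9.78% and wild type brain replicate 2 listed 7.64%, and each of the other 8 libraries listed at most 3.66%. These 3 libraries also listed 7, 7 and 6 of the 10 genes at 0, and the others listed 0 to 4. A set of 16 pan-endothelial genes summed to between 1563 and 2309 FPKM in brain and to between 393 and 964 FPKM in tumour. Neuronal transcripts were present too: 8 neuron markers summed to between 4318 and 6109 FPKM in brain and to between 93.1 and 2839 FPKM in tumour, the highest tumour value being that of wild type replicate 3.

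Pdgfb was the most abundant of the 10 genes in brain, and its level was lower in tumour. In wild type brain it stood at 63.5, 44.5 and 65.4 FPKM, and in wild type tumour at 23.9, 27.9 and 12.3 FPKM. In Eltd1-/- mice it stood at 41.7, 54.9 and 56.0 FPKM in brain and at 19.7 and 30.3 FPKM in tumour. Every tumour library lay below every brain library, as was the case for 12.3% of all tested genes, and the genotypes overlapped in both tissues. The order of the group means was wild type brain (57.8 ± 11.6, SD, n = 3), Eltd1-/- brain (50.9 ± 7.96, SD, n = 3), Eltd1-/- tumour (24.97 ± 7.49, SD, n = 2) and wild type tumour (21.4 ± 8.16, SD, n = 3). Only the step from Eltd1-/- brain to Eltd1-/- tumour separated neighbours that did not overlap. In each library Pdgfb ranked between the 56.4 and the 89.9 percentile of the tested genes. The gene lies at chr15:79995865-80024614 on GRCm38.

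**Figure D1:**
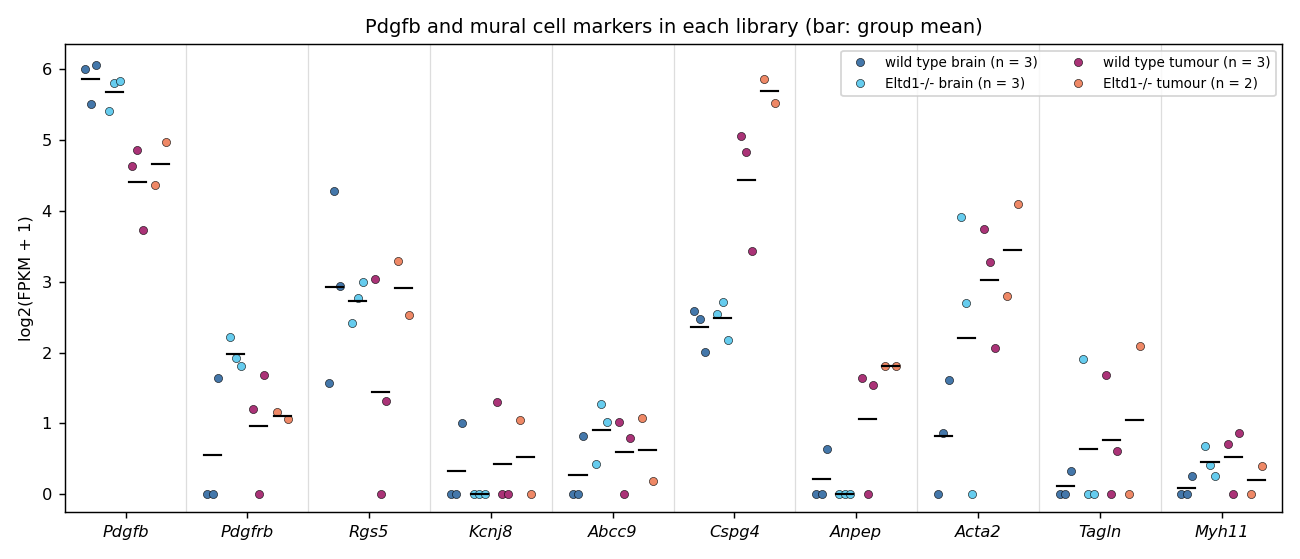
Level of each of the 10 genes in each library as log2(FPKM + 1), with 1 point per library, colours for the 4 groups of tissue and genotype and a bar at each group mean. Pdgfb lies lower in all 5 tumour libraries than in all 6 brain libraries, Cspg4 lies higher in all tumour libraries, and most other markers are near 0 with groups that overlap.

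The fall of Pdgfb passed the test in wild type mice, though its direction turned when endothelial transcripts were set equal, with a log2 change of -1.45 (SE 0.39, adjusted p = 0.026, limma with Benjamini-Hochberg adjustment over all tested genes). In Eltd1-/- mice the log2 difference was -1.02 (SE 0.44, adjusted p = 0.18), and the difference between the genotypes in this step was 0.43 (SE 0.59, adjusted p = 1.00, limma). Here and below, a log2 change is the difference of mean log2(FPKM + 1), a scale on which low genes show less than their true change. Over both genotypes the mean log2 difference was -1.23, and a two-sided exact permutation of the tissue labels within each genotype gave p = 0.005, the smallest its 200 arrangements allow (0.02 after adjustment over 4 such tests). The wild type call was lost without wild type brain replicate 1 (adjusted p = 0.070, limma) or replicate 3 (0.077), and without the 3 libraries richest in zeros the log2 difference was -1.87 with an adjusted p of 0.12. It was also lost under upper quartile scaling (adjusted p = 0.052), with wild type tumours 2 and 3 left out (0.078) and in a fit to the wild type libraries alone (0.099).

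Other endothelial transcripts were lower in tumour as well, and relative to them Pdgfb overlapped between the tissues. Of the 16 pan-endothelial genes, 8 fell in wild type tumour (11.7% of all tested genes did) and 3 in Eltd1-/- tumour (2.29% of all). None rose. Median log2 changes of the 16 were -1.51 and -1.19, beside medians of -0.26 and -0.18 over all tested genes. Of 26 other settings, the wild type calls held in 26 for Tek, 25 for Flt1 and Cldn5, and 23 for Eng and Pecam1. They held in 20 for Tie1, 18 for Ramp2 and 15 for Cdh5. In a fit to the wild type libraries alone, Eng, Pecam1, Tie1, Ramp2 and Cdh5 did not pass. The Eltd1-/- calls of Flt1, Tek and Cldn5 each held in 23 of 26. These settings include the one with this list set equal. Pdgfb minus the mean log2 value of the 16 genes was 0.04 ± 0.44 (SD, n = 3) in wild type tumour, -0.32 ± 0.60 (SD, n = 2) in Eltd1-/- tumour, -0.21 ± 0.26 (SD, n = 3) in wild type brain and -0.67 ± 0.42 (SD, n = 3) in Eltd1-/- brain. Over both genotypes tumour differed from brain by 0.30 (exact permutation p = 0.27, adjusted 0.35, two-sided). As a share of the summed pan-endothelial FPKM, Pdgfb made up 2.41% to 4.46% in tumour (median 3.11%) and 1.81% to 3.57% in brain (median 2.95%). With the pan-endothelial mean set equal in all libraries, the log2 difference of Pdgfb turned to 0.25 in wild type mice (adjusted p = 0.66, limma) and to 0.35 in Eltd1-/- mice (0.62). Neuron markers fell too, 7 of 8 in wild type tumour (11.7% of all tested genes did) and 1 of 8 in Eltd1-/- tumour (2.29% of all). Whether a smaller endothelial share of the captured RNA or less Pdgfb per endothelial cell gave the lower FPKM was not tested. The part of RNA from other cells in the level of Pdgfb was not tested either.

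**Figure D2:**
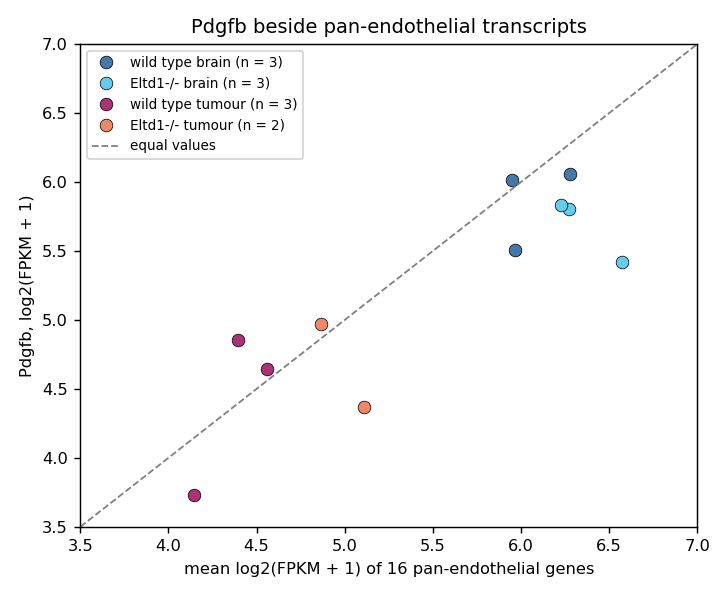
Pdgfb as log2(FPKM + 1) against the mean log2(FPKM + 1) of 16 pan-endothelial genes, with 1 point per library and a dashed line where both are equal. The 5 tumour libraries lie to the lower left of the 6 brain libraries, and 3 tumour libraries and 1 brain library lie above the line.

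Between the genotypes Pdgfb differed by less than the spread of the libraries. Eltd1-/- minus wild type was 0.26 in tumour (SE 0.44) and -0.17 in brain (SE 0.39), each with an adjusted p of 1.00 (limma). Over both tissues the mean difference was 0.04 (two-sided exact permutation p = 0.90), and relative to the pan-endothelial genes it was -0.41 (p = 0.14 by the same permutation, adjusted 0.27).

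Among 10317 tested genes with a mean of at least 5 FPKM, left after clone, Rik and predicted-gene names were removed, those most like Pdgfb over the 11 libraries were Ptp4a3, Emc10, Rab11b, Ablim1 and Hdhd2. Likeness was the root mean square difference of log2(FPKM + 1) after each gene was centred on its own mean. It was 0.20 for Ptp4a3, a phosphatase, and 0.23 for Emc10, a subunit of a membrane protein insertion complex, and the median over all candidates was 1.14. The 8 tested markers were no closer to Pdgfb than 0.90 (Abcc9), and Cspg4 was the farthest at 1.95. Pdgfrb, Kcnj8, Abcc9, Tagln and Anpep had means under 5 FPKM and so could not be candidates.

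Pdgfrb, which marks pericytes and receives the PDGF-B signal, was near the lower limit of measurement. It read 1.30, 0 and 2.22 FPKM in wild type tumour and 1.23 and 1.08 FPKM in Eltd1-/- tumour. In brain it read 0, 0 and 2.12 FPKM in wild type and 3.64, 2.78 and 2.50 FPKM in Eltd1-/- mice. The tissues overlapped, and the 3 Eltd1-/- brain libraries lay above the 3 wild type ones, of which those at 0 were the pair rich in zeros. Eltd1-/- minus wild type in brain was 1.43 on the log2 scale (SE 0.63), with an unadjusted p of 0.042 and an adjusted p of 1.00 (limma). That difference was 1.98 without wild type brain replicate 3 and 0.34 without the 3 libraries richest in zeros. Tumour minus brain was 0.42 (SE 0.63, adjusted p = 0.67, limma) in wild type and -0.87 (SE 0.70, adjusted p = 0.48) in Eltd1-/- mice, and the wild type value was -0.20 without the 3 libraries richest in zeros.

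Rgs5, which encodes a brake on G protein signalling and is among the most abundant transcripts of brain pericytes, had the highest mean of the pericyte markers in brain. Its values were 1.96, 18.4 and 6.69 FPKM in wild type brain, 4.33, 5.85 and 7.01 FPKM in Eltd1-/- brain, 7.19, 0 and 1.48 FPKM in wild type tumour and 8.83 and 4.77 FPKM in Eltd1-/- tumour. The groups overlapped, and a single wild type brain library held the highest level. Tumour minus brain was -1.48 in wild type (SE 0.87, adjusted p = 0.25, limma), and it turned to 0.10 when wild type tumours 2 and 3 were left out. In Eltd1-/- mice it was 0.18 (SE 0.97, adjusted p = 0.94). By the same measure the genes most like Rgs5 were Pdcd6 (0.44), Ccdc130 (0.44), Asb7 (0.50), Samd14 (0.50) and Smpdl3a (0.51), against a median of 1.36. Ccdc130, Asb7, Samd14 and Smpdl3a, like Rgs5, had a lowest tumour value of 0. The nearest of the other tested members was Kcnj8 (1.03), whose mean was under 5 FPKM, so it could not be a candidate.

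Kcnj8 and Abcc9 encode the pore and the regulatory subunit of the ATP-sensitive potassium channel of pericytes. The genes are neighbours, at chr6:142564837-142571614 and chr6:142587862-142702766 on GRCm38, with 16247 bases between them. Kcnj8 was listed at 0 in 8 of 11 libraries and reached 1.06 FPKM in Eltd1-/- tumour replicate 1, 1.45 FPKM in wild type tumour replicate 1 and 1.00 FPKM in wild type brain replicate 3. Abcc9 was above 0 in 8 libraries, those 3 included, and its highest value was 1.42 FPKM, in Eltd1-/- brain replicate 2. Neither gene separated any pair of groups. Their log2 differences between tumour and brain ranged from -0.28 for Abcc9 in Eltd1-/- mice to 0.52 for Kcnj8 in the same mice, and none passed the test.

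Cspg4 was the only marker that passed the test between the tissues, and it was higher in tumour in both genotypes. It encodes NG2, a proteoglycan on pericytes that is also carried by oligodendrocyte precursors and by many glioma cells. Wild type brain held 4.98, 4.56 and 3.02 FPKM and Eltd1-/- brain 4.85, 5.58 and 3.52 FPKM. Wild type tumour held 32.3, 27.4 and 9.79 FPKM and Eltd1-/- tumour 56.9 and 44.9 FPKM. Every tumour library lay above every brain library, as for 8.73% of the tested genes, and both Eltd1-/- tumours lay above all 3 wild type tumours. The group means were 50.9 ± 8.49 (SD, n = 2) in Eltd1-/- tumour, 23.2 ± 11.8 (SD, n = 3) in wild type tumour, 4.65 ± 1.04 (SD, n = 3) in Eltd1-/- brain and 4.19 ± 1.03 (SD, n = 3) in wild type brain.

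The log2 change of Cspg4 was 2.08 in wild type tumour (SE 0.53, adjusted p = 0.020, limma) and 3.21 in Eltd1-/- tumour (SE 0.60, adjusted p = 0.0089). Eltd1-/- minus wild type was 1.25 in tumour (SE 0.60, unadjusted p = 0.059, adjusted p = 1.00, limma) and 0.13 in brain (SE 0.53, adjusted p = 1.00), so the higher level of the Eltd1-/- tumours did not pass. The wild type call was lost without wild type tumour replicate 1 (adjusted p = 0.079, limma), without wild type brain replicate 3 (0.059), without the 3 libraries richest in zeros (0.16) and in a fit to the wild type libraries alone (0.11). The Eltd1-/- call was lost when 1 tumour library remained (adjusted p = 0.13 without replicate 1 and 0.076 without replicate 2), a fit that assumes the lone library varies like the other groups.

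**Figure D3:**
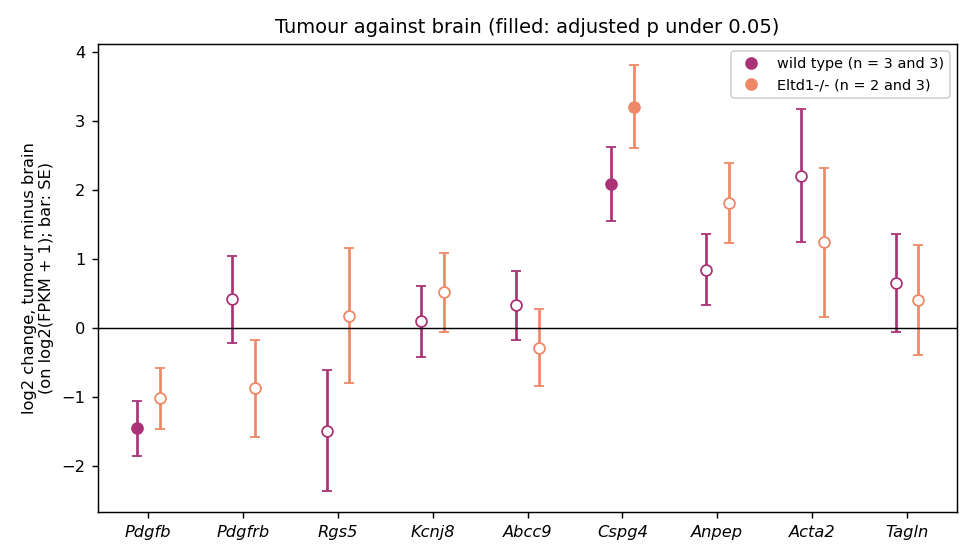
Tumour minus brain for the 9 tested genes in wild type and in Eltd1-/- mice, as the difference of mean log2(FPKM + 1) with its standard error, filled where the adjusted p was under 0.05. Pdgfb in wild type mice and Cspg4 in both genotypes are filled, and the other bars are open.

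Of 6 other genes used to recognise oligodendrocyte precursors and glioma cells, 4 rose in each genotype. Over all tested genes, 7.7% rose in wild type and 4.8% in Eltd1-/- mice. The 6 (Olig1, Olig2, Sox10, Pdgfra, Nes and Cd44) summed to between 256 and 458 FPKM in tumour and to between 52.7 and 101 FPKM in brain, and none was at 0 in every library of a tissue. Olig2, a transcription factor of the oligodendrocyte lineage, read 55.9 to 110 FPKM in tumour (median 69.5) and 1.46 to 7.82 FPKM in brain (median 4.95). It rose by 3.67 in wild type (SE 0.52, adjusted p = 0.0012, limma) and by 3.81 in Eltd1-/- mice (SE 0.59, adjusted p = 0.0033). Sox10, another factor of that lineage, and Cd44, a hyaluronan receptor common in glioma, also rose in both genotypes. Olig1 passed in wild type only (adjusted p = 0.029, limma, against 0.074 in Eltd1-/- mice), a call that held in 21 of 26 other settings. Nes passed in Eltd1-/- mice only (adjusted p = 0.0497, limma, against 0.41 in wild type), a call that held in 15 of 26. For neither gene did the difference between the genotypes pass. The wild type calls of Olig2, Sox10 and Cd44 were lost without the 3 libraries richest in zeros. The Eltd1-/- calls of Olig2 and Sox10 were lost without tumour replicate 1, and that of Cd44 without either tumour or without brain replicate 1 or 2. Pdgfra, the PDGF receptor of oligodendrocyte precursors, singled out after its values were seen, did not pass, with -1.42 (SE 0.81, adjusted p = 0.24, limma) in wild type and -0.71 (SE 0.90, adjusted p = 0.68) in Eltd1-/- mice. The part of these cells in the level of Cspg4 was not tested.

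**Figure D4:**
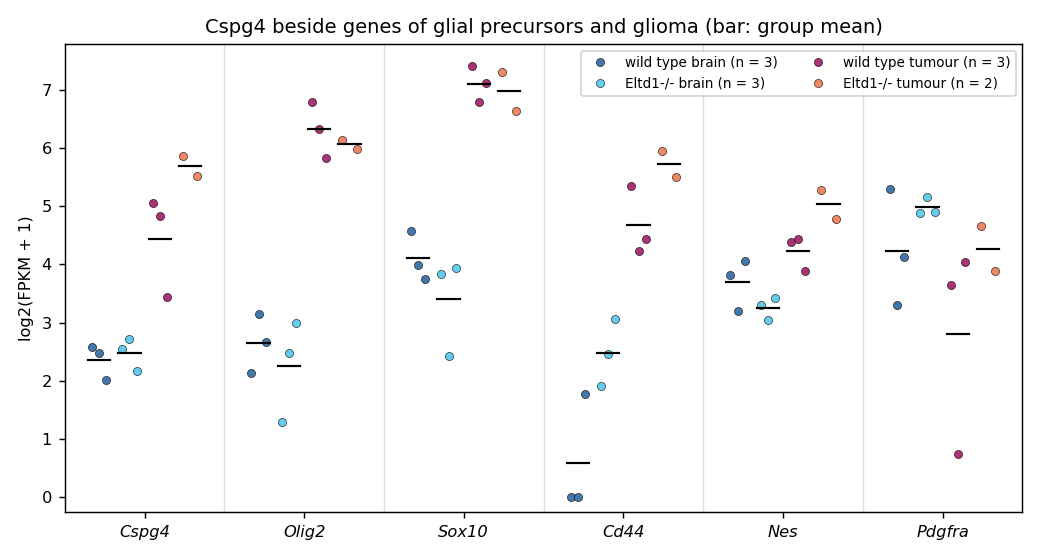
Cspg4 beside 5 genes of glial precursors and glioma in each library, as log2(FPKM + 1), with 1 point per library and a bar at each group mean. Cspg4, Olig2, Sox10 and Cd44 are higher in every tumour library than in every brain library, whereas Pdgfra is not.

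The 250 bases that precede the start of Cspg4 are shown because it was the only marker called, and because GC boxes in them can be set beside the box content of all promoters. They lie at chr9:56864854-56865103 on the plus strand (RefSeq, GRCm38.p6). Capitals mark GC boxes, searched as GGGCGG on both strands.
Cspg4: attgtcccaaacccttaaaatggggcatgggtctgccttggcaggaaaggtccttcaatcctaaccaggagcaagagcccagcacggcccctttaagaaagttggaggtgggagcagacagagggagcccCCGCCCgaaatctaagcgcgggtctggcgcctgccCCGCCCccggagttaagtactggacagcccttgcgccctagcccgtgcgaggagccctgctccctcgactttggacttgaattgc
Both boxes are on the reverse strand, 120 to 115 and 85 to 80 bases before the start. A GC box occurred in 32.7% of 32851 promoter windows of this length. The SOX motif ACAAAG, searched on both strands, was not in this window and occurred in 16.5% of windows. Such a match describes letters and not a bound site.

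Anpep, the surface peptidase CD13 of brain pericytes and of myeloid cells, was above 0 in 4 of 5 tumour libraries and in 1 of 6 brain libraries. It read 2.12, 0 and 1.91 FPKM in wild type tumour, 2.52 and 2.50 FPKM in Eltd1-/- tumour, 0, 0 and 0.562 FPKM in wild type brain and 0 in all 3 Eltd1-/- brain libraries. The only tumour at 0 was wild type replicate 2, the library with the most zeros. Tumour minus brain was 0.85 in wild type (SE 0.52, adjusted p = 0.27, limma) and 1.81 in Eltd1-/- mice (SE 0.58, adjusted p = 0.082), and neither passed. The latter passed without wild type tumour replicate 2 (0.028 after adjustment, limma), without all 3 libraries richest in zeros (0.027), with wild type tumours 2 and 3 left out (0.015), in a fit to the Eltd1-/- libraries alone (0.017), under quantile normalization (0.041) and with library weights (0.0085). Of 9 markers of microglia and macrophages, 2 rose in wild type tumour (Ptprc and C1qa) and 1 in Eltd1-/- tumour (C1qa). Over all tested genes, 7.7% and 4.8% rose. The 9 summed to between 109 and 263 FPKM in tumour and to between 31.8 and 60.3 FPKM in brain, without overlap. None was at 0 in every library of a tissue, but Aif1, Tyrobp and Ptprc were at 0 in all 3 wild type brain libraries. The part of these cells in the level of Anpep was not tested.

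Acta2, the smooth muscle actin, varied widely within groups. Wild type tumour held 12.4, 8.68 and 3.19 FPKM and Eltd1-/- tumour 5.96 and 16.1 FPKM. Wild type brain held 0, 0.820 and 2.06 FPKM, below all tumours, and Eltd1-/- brain held 14.1, 5.51 and 0 FPKM, across the whole range. Tumour minus brain was 2.2 in wild type (SE 0.96, unadjusted p = 0.042, adjusted p = 0.13, limma) and 1.24 in Eltd1-/- mice (SE 1.08, adjusted p = 0.52). Neither difference passed.

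Acta2 is a textbook target of serum response factor, which binds CArG boxes. Both boxes before its start are shown with 10 bases on each side (RefSeq, GRCm38.p6, minus strand of chr19:34255438-34255467 and chr19:34255388-34255417), with the box in capitals, because no other of the matched windows held one. The RefSeq record of the gene reaches to base 34255585 and so spans both boxes, and distances are to the start given in the promoter table, which lies inside that record.
Acta2 far box: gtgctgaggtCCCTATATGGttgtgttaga
Acta2 near box: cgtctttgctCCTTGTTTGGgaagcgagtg
The search was for CC, 6 bases of A or T with at most 1 departure, and GG, on both strands. The boxes lie 84 to 75 and 34 to 25 bases before the start, and such a box occurred in 8.59% of windows. Windows were found for 6 of the 10 genes: Rgs5, Kcnj8, Abcc9, Cspg4, Anpep and Acta2. No entry was matched for Pdgfb, Pdgfrb, Tagln and Myh11.

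Tagln, which encodes an actin-binding protein of smooth muscle, and Myh11, its myosin heavy chain, were at the limit of measurement. Tagln was above 0 in 5 of 11 libraries, at 2.21 and 0.526 FPKM in wild type tumour, 3.28 FPKM in Eltd1-/- tumour replicate 2, 0.261 FPKM in wild type brain replicate 3 and 2.77 FPKM in Eltd1-/- brain replicate 1. Its tumour minus brain difference was 0.65 (SE 0.71, adjusted p = 0.55, limma) in wild type and 0.41 (SE 0.79, adjusted p = 0.80) in Eltd1-/- mice. Myh11 was above 0 in 7 libraries and reached at most 0.825 FPKM, in wild type tumour replicate 3. Acta2 and Tagln both had their highest value in Eltd1-/- tumour replicate 2, where Myh11 read 0.318 FPKM.

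In all, 2 of the 9 tested genes were called between wild type tumour and brain, beside 19.4% of all tested genes. Of these, 1 was higher (Cspg4, beside 7.7% of all tested genes) and 1 was lower (Pdgfb, beside 11.7%). Between Eltd1-/- tumour and brain 1 of 9 was called, beside 7.09% of all tested genes: Cspg4 was higher (4.8% of all) and none was lower (2.29%). The wild type share is close to its background, and the count fell to 0 without wild type brain replicate 3, without the 3 libraries richest in zeros and in a fit to the groups compared. For the genotypes, limma called 0 of 9 in tumour (0.0192% of all tested genes), 0 of 9 in brain (0.00641%) and 0 of 9 for the difference between the tissues (0.00641%). At an unadjusted p under 0.05 the counts were 0 in tumour, 1 in brain (Pdgfrb) and 0 for the difference, beside 3.11%, 4.34% and 3.17% of all tested genes. The adjusted test can miss large genotype differences. In simulated data with few changed genes, it recovered 0% of log2 changes of 2 in tumour and 4.48% in brain. Of log2 changes of 3 it recovered 19.7% in tumour and 43.9% in brain. Tumour and brain libraries did not overlap for 2 of the 9 (Pdgfb and Cspg4), beside 21% of all tested genes. The median log2 change of the 9 genes was 0.42 in wild type and 0.41 in Eltd1-/- mice, beside -0.26 and -0.18 over all tested genes. Choices of scaling moved that reference: under upper quartile scaling the wild type median was -0.10 and under quantile normalization 0.01, and the share of calls that were higher moved from 39.7% to 51.8% and 52.2%.

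Set against endothelial RNA, the markers other than Cspg4 were at low levels. The 8 of them summed to between 1.96 and 25.7 FPKM in brain and to between 8.68 and 28.3 FPKM in tumour, and the tissues overlapped. As a share of the pan-endothelial sum this was 0.110% to 1.23% in brain (median 0.768%) and 0.900% to 4.73% in tumour (median 2.77%). Only wild type tumour replicate 2, at 0.900%, lay within the range of the brain libraries. When the pan-endothelial mean was set equal in all libraries, 7 of the 9 genes were called higher in wild type tumour (Pdgfrb, Kcnj8, Abcc9, Cspg4, Anpep, Acta2 and Tagln) and 3 in Eltd1-/- tumour (Kcnj8, Cspg4 and Anpep). Of all tested genes, 42.6% and 25.3% were called higher under that setting, so the Eltd1-/- count is near its background. That scaling raises every tumour value, those at 0 included, and 97.7% of all wild type calls were then higher.

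Of the other PDGF ligands and receptors, 1 of 4 tested genes fell in wild type tumour (11.7% of all tested genes did) and 0 in Eltd1-/- tumour (2.29% of all). It was Pdgfd, a further ligand of PDGFRB, at 10.3, 3.26 and 5.77 FPKM in wild type brain and 1.38, 0 and 0.956 FPKM in wild type tumour. The change was -2.04 (SE 0.64, adjusted p = 0.045, limma), and it passed in 6 of 26 other settings. Of the settings that left out 1 library, it passed only without wild type brain replicate 2. In Eltd1-/- mice Pdgfd differed by -1.63 (SE 0.72, adjusted p = 0.19). All brain libraries were above all tumour libraries.

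Of 10 genes that process or retain PDGF ligands, 1 passed, lower in wild type tumour, beside 11.7% lower over all tested genes. Pcsk5, a proprotein convertase, fell in wild type tumour (-2.76, SE 0.56, adjusted p = 0.0080, limma), and 0 of the 10 passed in Eltd1-/- tumour. Its levels were 6.39, 11.6 and 4.39 FPKM in wild type brain and 0, 0 and 0.618 FPKM in wild type tumour. The call was lost without the 3 libraries richest in zeros (adjusted p = 0.16, limma), in a fit to the wild type libraries alone and with the pan-endothelial list set equal, where the difference was -1.06 (adjusted p = 0.18).

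Of 16 genes that carry the signal of PDGF receptors into the cell, Stat3 rose in both genotypes and 15 did not pass in either. That count is near its background of 7.7% higher over all tested genes in wild type and 4.8% in Eltd1-/- mice. Stat3, a transcription factor of many cytokine and growth factor receptors, read 127 to 243 FPKM in tumour (median 193) and 16.5 to 83.1 FPKM in brain (median 38.9), without overlap. It rose by 2.38 in wild type (SE 0.50, adjusted p = 0.0089, limma) and by 2.27 in Eltd1-/- mice (SE 0.56, adjusted p = 0.032). The wild type call was lost in a fit to the wild type libraries alone. The Eltd1-/- call was lost without any 1 of the 5 Eltd1-/- libraries.

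Of 17 genes of other signals between endothelium and mural cells, 5 fell and 0 rose in wild type tumour, beside 11.7% lower over all tested genes. Those with the smallest p were Tek, the angiopoietin receptor, S1pr1, a sphingosine phosphate receptor, Acvrl1, a receptor of BMP ligands, and Eng, its co-receptor. In Eltd1-/- tumour Tek and S1pr1 fell, and Angpt2, the ligand that destabilises vessels, rose by 3.54 (SE 0.86, adjusted p = 0.032, limma). Of all tested genes, 2.29% fell and 4.8% rose in that genotype. The Eltd1-/- call of Angpt2 was lost with a pseudocount of 0.1 or 0.5. In wild type Angpt2 differed in the same direction, by 1.87 (adjusted p = 0.11, limma). The difference between the genotypes passed for 0 of the 17 genes. S1pr1 held 104 to 122 FPKM in wild type brain and 1.80 to 18.4 FPKM in wild type tumour, a change of -3.87 (SE 0.56, adjusted p = 0.0013). Tek changed by -2.96 in wild type (SE 0.37, adjusted p = 0.00061, limma) and by -2.26 in Eltd1-/- mice (SE 0.41, adjusted p = 0.0084). The Eltd1-/- call of Tek was lost without either tumour library, and those of S1pr1 and Angpt2 without any 1 of the 5 Eltd1-/- libraries, that of S1pr1 also without wild type brain replicate 3. Without the 3 libraries richest in zeros, 2 of the 5 wild type calls (Tek and S1pr1) remained. With the pan-endothelial list set equal the same 2 passed in wild type, Acvrl1 was at -0.25, Eng at -1.05 and Tgfbr2, the fifth, turned to 0.50, and in Eltd1-/- mice Tek (-0.89) and S1pr1 (-1.18) did not pass. Median log2 changes of the 17 genes were -0.71 and -0.36, and Tek and Eng are also in the pan-endothelial list.

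Of 13 further pericyte markers tested, Mcam rose in both genotypes and 12 passed in neither. Over all tested genes, 7.7% rose in wild type and 4.8% in Eltd1-/- mice, so this count is near its background. Mcam encodes CD146, an adhesion molecule of pericytes that endothelial and tumour cells also carry. It read 243 to 546 FPKM in tumour (median 306) and 13.8 to 48.2 FPKM in brain (median 30.1), and rose by 3.00 in wild type (SE 0.42, adjusted p = 0.0010, limma) and by 4.49 in Eltd1-/- mice (SE 0.46, adjusted p = 0.00053).

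Of 9 further smooth muscle markers tested, Sncg and Mylk fell in wild type tumour and 0 passed in Eltd1-/- tumour, beside 11.7% and 2.29% lower over all tested genes. Sncg encodes gamma-synuclein, a protein that neurons also make in quantity, and had a log2 change of -4.02 (SE 0.70, adjusted p = 0.0038, limma). Mylk, the myosin light chain kinase, fell by 2.08 (SE 0.60, adjusted p = 0.032). That call was lost without wild type tumour replicate 2, without any wild type brain library, without either Eltd1-/- tumour and without Eltd1-/- brain replicate 3. Both calls were lost without the 3 libraries richest in zeros (adjusted p = 0.12 and 0.23, limma). Neuron markers moved with Sncg, with 7 of 8 falling in wild type tumour (11.7% of all tested genes did), and their part in its change was not tested.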

How the data were processed

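FPKM values were deposited by the authors, 1 value per gene and library, in a column so named per the file headers. TopHat2 2.1.1, Cufflinks 2.2.1 and the build GRCm38 are listed in the submitters' processing notes, with no role for each tool and no gene annotation given in the sources used here. For 176 symbols with repeated entries (363 entries), FPKM was added up per symbol. Low values were searched for steps of whole reads. In 21 pairs of libraries with at least 200 low genes, between 0.803% and 2.82% of these lay on the most frequent ratio, so no reads were recovered, the depth is unknown and no counting interval is given.

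Log2(FPKM + 1) was tested with limma 3.58.1 in R 4.3.3 for genes that reached 1 FPKM in 2 or more libraries, with 4 group means over 11 libraries, 7 residual degrees of freedom and a variance trend. The 5 contrasts were two-sided, adjusted by Benjamini-Hochberg over all tested genes, with a threshold of 0.05. The script was tested on simulated data. Groups came from the titles of the samples, whose replicate numbers only name them. No batch is given in the labels. Promoter windows and positions are from RefSeq. All 10 genes are named, and of each other list up to 4 called genes per direction with the smallest p. The members and lists were chosen with earlier results of these data known. Other pseudocounts, filters, scalings, variance models and left-out libraries were tried, and leaving out the 3 libraries richest in zeros, and Ramp2 from the pan-endothelial list, was chosen after seeing the data.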

Additional observations from a re-analysis of the deposited data

How the results depend on the processing

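Depth is unknown, and most markers other than Cspg4, Rgs5 and Acta2 lie where a pseudocount of 1 compresses differences. Of 766 recomputed values, 707 kept direction and side of the threshold. Of 129 recomputed counts of called members, 112 stayed within 1.5 times. These include all those for the genotype contrasts, which were 0 of 9 in each setting. Of the counts for tumour minus brain, 18 of 26 stayed so in wild type and 17 of 26 in knockout. Unless a reason is given, the cause of a change was not tested.

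Between wild type tumour and brain, the count of 2 of 9 genes was 1 under upper quartile scaling (Cspg4), and 0 with only the groups compared. It was 7 with the pan-endothelial list set equal, and 0 to 2 without single libraries. Between knockout tumour and brain the count of 1 became 2 (Anpep and Cspg4) under quantile normalization, without wild type tumours 2 and 3, without the 3 zero-rich libraries and with only the groups compared. It became 3 with the pan-endothelial list set equal (Anpep, Cspg4 and Kcnj8) and with library weights (Anpep, Cspg4 and Pdgfb), and ran from 0 to 2 with single libraries left out.

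With the pan-endothelial list set equal, which adds to every tumour value by construction, tumour minus brain turned to 0.25 for Pdgfb and 0.22 for Rgs5 in wild type, and to 0.35 for Pdgfb and 0.50 for Pdgfrb in knockout. Knockout minus wild type turned to -0.36 for Pdgfb, -0.48 for Pdgfrb and -0.20 for Acta2 in tumour, and to -0.17 for Cspg4 in brain. All had an adjusted p of at least 0.62 (limma). Knockout minus wild type in tumour, not called in any setting, also turned for Pdgfrb under quantile normalization (-0.40), library weights (-0.088), wild type tumours 2 and 3 left out (-0.10) and the 3 zero-rich libraries left out (-0.34), for Acta2 with library weights (-0.065) and wild type tumours 2 and 3 left out (-0.29), and for Rgs5 in the latter (-0.12). Tumour minus brain in wild type turned to 0.10 for Rgs5 without wild type tumours 2 and 3, and to -0.20 for Pdgfrb without the 3 zero-rich libraries.

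With single libraries left out, knockout minus wild type in tumour ran from -0.080 to 0.56 for Pdgfb, -0.34 to 0.51 for Pdgfrb and -0.23 to 1.07 for Acta2. In brain it ran from -0.88 to 0.48 for Rgs5 and -0.047 to 0.28 for Cspg4. Tumour minus brain in knockout ran from -0.20 to 0.57 for Rgs5.

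The Pdgfb difference between tumour and brain over both genotypes ran from -1.38 to -1.06 with single libraries left out, with adjusted exact permutation p from 0.040 to 0.067, and lost its call without any 1 of the knockout libraries, where the fewer arrangements allow no smaller p. It was -1.12 without wild type tumours 2 and 3 and -1.44 without the 3 zero-rich libraries. Both settings left a lone library in a wild type group. Neither passed, and the few arrangements left allow no smaller permutation p. Knockout minus wild type over both tissues ran from -0.13 to 0.19, and was -0.072 without wild type tumours 2 and 3.

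Over all tested genes, 3025 were called between tumour and brain in wild type and 1106 in knockout. These counts were 6814 and 3980 with the pan-endothelial list set equal, 4929 and 4124 with library weights, 338 and 1933 without the 3 zero-rich libraries and 614 and 2802 with only the groups compared. With single libraries left out they ran from 1793 to 3875 and from 163 to 1997. The knockout count was also 1822 under quantile normalization, 710 with a pseudocount of 0.1 and 2750 without wild type tumours 2 and 3. Knockout minus wild type in tumour called 3, and 62 with library weights, 29 without wild type tumour replicate 2 and 0 with only the groups compared. The share of knockout tumour calls that were higher was 67.7%, but 99.2% with the pan-endothelial list set equal, 45.2% with library weights, 44.0% without wild type tumours 2 and 3, 47.1% with only the groups compared and 49.1% without wild type tumour replicate 3. The wild type share of 39.7% was 70.1% without the 3 zero-rich libraries and 69.9% with only the groups compared.

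No paired analysis was possible because the replicate numbers only name the samples and tie none to a sample of another group.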

Other observations

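Fibroblasts of the vessel wall share several transcripts with mural cells. Of 6 fibroblast markers tested, Col3a1 rose in both genotypes and the other 5 passed in neither, beside 7.7% and 4.8% higher over all tested genes. The median log2 change of the 6 went the other way, at -1.12 in wild type and -0.54 in Eltd1-/- mice. Col3a1 encodes the chain of type III collagen, a fibre-forming collagen of vessel walls. It read 16.03, 17.1 and 15.3 FPKM in wild type tumour and 22.2 and 38.2 FPKM in Eltd1-/- tumour, against at most 1.02 FPKM in each brain library. All tumours lay above all brains, and the log2 change was 3.46 in wild type (SE 0.57, adjusted p = 0.0027, limma) and 4.66 in Eltd1-/- mice (SE 0.64, adjusted p = 0.0018). The 7 listed markers summed to between 17.8 and 60.1 FPKM in tumour and to between 10.7 and 59.5 FPKM in brain, Fap was at 0 in every tumour library, and the tissues overlapped.

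Red cell transcripts were lower in tumour by their sum. Alas2 was not, with a mean of 1.93 FPKM in Eltd1-/- tumour and 1.08 FPKM in Eltd1-/- brain. The 5 erythrocyte markers summed to between 0 and 3.23 FPKM in tumour and to between 4.91 and 44.2 FPKM in brain, without overlap, and 0 of the 3 tested passed in either genotype (limma). At an unadjusted p under 0.05 Hba-a2 was lower in both genotypes, beside 34.4% of all tested genes under it in wild type and 24.6% in Eltd1-/- mice, in either direction.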
